A study of Mus musculus with 6 samples.

Results

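The genes described here are 44 listed chaperone and unfolded protein response genes, out of 12393 genes that the array measured with a probe set of a single gene symbol. They were listed by name and not by a cut on measured values, but with earlier results of these data known. They fall into 18 genes of the endoplasmic reticulum (ER), 14 cytosolic genes, 4 mitochondrial genes and 8 chaperonin genes. The last group holds 7 subunits of the cytosolic chaperonin CCT and the prefoldin subunit Pfdn2. Each gene was represented by its brightest single-symbol probe set over the arrays. Hsp90ab1 and Hsf1 had no such probe set and were not analysed here. Hspb1 and Bag3, a small heat shock protein and an HSP70 co-chaperone, lay below the signal floor of 20.1 on all 6 arrays, so 40 of the 44 genes were tested.

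The signals came from Affymetrix arrays of Ba/F3 cells, an interleukin-3 (IL3) dependent mouse line labelled as pro-B cells. A first line carried the empty retroviral vector pMSCV and was kept in IL3, a second expressed the fusion kinase ETV6-PDGFRB and the remaining line FIP1L1-PDGFRA, both constitutively active forms of PDGF receptors. Each line was either left untreated or given 100 nM imatinib (labelled Glivec), an inhibitor of PDGF receptor kinases, for 4 h, which makes 6 groups of 1 array each. All cells grew in 10% fetal bovine serum. The fusion lines had been selected to grow without IL3, so the fusion, the missing IL3 and the selection cannot be told apart in any comparison with the vector line. Whether a line is 1 clone or a pool was not given in the sources used here. Imatinib was tested with limma over all 6 arrays, the fusion lines serving as 2 repeats and the vector pair adding to the spread. This fit takes the vector line to have no response, so any difference with imatinib there counts as spread. The p-values therefore rest on that difference and on the spread between the fusion lines, not on repeated cultures. A gene is said to have risen or fallen only at an adjusted p under 0.05. The RNA came from whole cultures, so less RNA per cell and fewer cells with the transcript cannot be told apart.

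Each array had been brought to a trimmed mean of 100, and 49.8% to 50.6% of its probe sets lay above the floor. Ratios of the 3′ to the 5′ control probe sets ran from 1.12 to 1.22 for actin and from 0.754 to 0.802 for Gapdh. Of 16 pro-B markers on the array 6 were above the floor (Cd79a, Cd79b, Igll1, Btk, Tcf3 and Ptprc), Igll1 only in the vector line, at 21.5 and 21.1. Ebf1, Pax5, Vpreb1, Rag1, Rag2, Dntt, Il7r, Blnk, Cd24a and Cd93 stayed under the floor throughout. The summed signal of the pro-B list ran from 1211 to 1413. The 10 mast cell markers summed to 1181 and 1009 in the vector line, 4095 and 5595 in the ETV6-PDGFRB line and 612 and 1176 in the FIP1L1-PDGFRA line, untreated and treated, with Kit and Fcer1a below the floor throughout. The 6 erythroid markers summed to 619 and 592, 797 and 1671, and 495 and 1579 in the same order, with Hba-a1, Alas2 and Slc4a1 below the floor throughout, and the 3 detected ones (Klf1, Gata1 and Epor) rose with imatinib in the fusion lines. The part of these markers in the results below was not tested.

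Molecular chaperones bind unfolded polypeptides and help them fold, cross membranes or reach the degradation machinery. HSP70 proteins work in cycles of ATP hydrolysis set by J-domain (DNAJ) partners and by nucleotide exchange factors such as the HSP110 proteins. HSP90 completes the folding of client proteins, many of them kinases, and the ring-shaped chaperonins enclose whole chains. When unfolded proteins gather in the ER, the unfolded protein response raises ER chaperones through the transcription factors ATF6, XBP1 and ATF4. In the cytosol and mitochondria, heat shock factor does the same for heat shock proteins. Both programmes act through short promoter elements, which are shown first because each was found in some members of 1 or 2 groups.

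RefSeq promoter windows of 300 bases (250 before and 50 after the transcript start, build GRCm38.p6) matched 35 of the 44 genes: 15 ER, 10 cytosolic, 3 mitochondrial and 7 chaperonin. The ER stress response element, searched on both strands as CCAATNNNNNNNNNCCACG, was present in the windows of 7 of the 15 ER members (46.7%), in 0 of the other members and in 0.137% of 27025 genes. Its shorter relative ERSE-II, in which ATTGG and CCACG stand with 1 base between them, was in 2 ER members (13.3%) and in 0.0444% of all genes. Both elements hold the CCAAT box (CCAAT, or ATTGG when read on the other strand), which was itself in 14 of the 15 ER windows (93.3%) and in 41.1% of all genes. The stretches that hold these elements are printed below, 5′ to 3′ on the gene's strand, with the fixed letters of the elements in capitals. Hspa5 is given from 150 bases before its start and Hsp90b1 over a stretch with both of its elements.
Hspa5, chr2:34771940-34772089, plus strand, 1 ERSE: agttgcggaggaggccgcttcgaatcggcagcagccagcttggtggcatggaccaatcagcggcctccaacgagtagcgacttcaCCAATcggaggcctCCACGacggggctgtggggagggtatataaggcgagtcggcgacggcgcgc
Hsp90b1, chr10:86705525-86705664, minus strand, 2 ERSE: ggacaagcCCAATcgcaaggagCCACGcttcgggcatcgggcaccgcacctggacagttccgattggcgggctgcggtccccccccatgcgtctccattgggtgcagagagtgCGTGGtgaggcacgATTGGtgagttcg
Calr, chr8:84847067-84847101, minus strand, ERSE: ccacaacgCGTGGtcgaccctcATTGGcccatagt
Canx, chr11:50325792-50325826, minus strand, ERSE: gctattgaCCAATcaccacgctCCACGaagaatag
Pdia6, chr12:17266483-17266517, plus strand, ERSE: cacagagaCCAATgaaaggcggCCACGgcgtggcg
Dnajc3, chr14:118937819-118937853, plus strand, ERSE: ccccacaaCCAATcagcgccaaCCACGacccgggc
Creld2, chr15:88819512-88819546, plus strand, ERSE: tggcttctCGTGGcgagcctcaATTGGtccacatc
Herpud1, chr8:94386369-94386395, plus strand, ERSE-II: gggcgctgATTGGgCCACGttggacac
Dnajb11, chr16:22857845-22857870, plus strand, ERSE-II, after the transcript start: ggcggcgATTGGcCCACGcctggctg

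The heat shock element, searched on both strands as GAANNTTCNNGAA, was in 0.662% of all genes, in 2 of the 10 cytosolic members (20.0%), in 2 of the 3 mitochondrial members (66.7%) and in 0 ER and 0 chaperonin members. The mitochondrial pair, Hspd1 and Hspe1, are transcribed away from each other and share a single stretch with 2 overlapping elements. These stretches are shown because their genes are compared below.
Dnajb6, chr5:29735844-29735872, plus strand: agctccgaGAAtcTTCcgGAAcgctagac
Hspd1 and Hspe1, chr1:55088051-55088084, minus strand: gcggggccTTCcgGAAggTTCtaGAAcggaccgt
Hsph1, chr5:149636280-149636308, minus strand, after the transcript start: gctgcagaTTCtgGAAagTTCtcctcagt
The E-box CACGTG, searched on both strands, was in 2 ER (13.3%), 1 cytosolic (10.0%), 1 mitochondrial (33.3%) and 0 chaperonin members, against 8.09% of all genes. A match is a description of the window and does not show that a factor binds there.

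**Figure D1:**
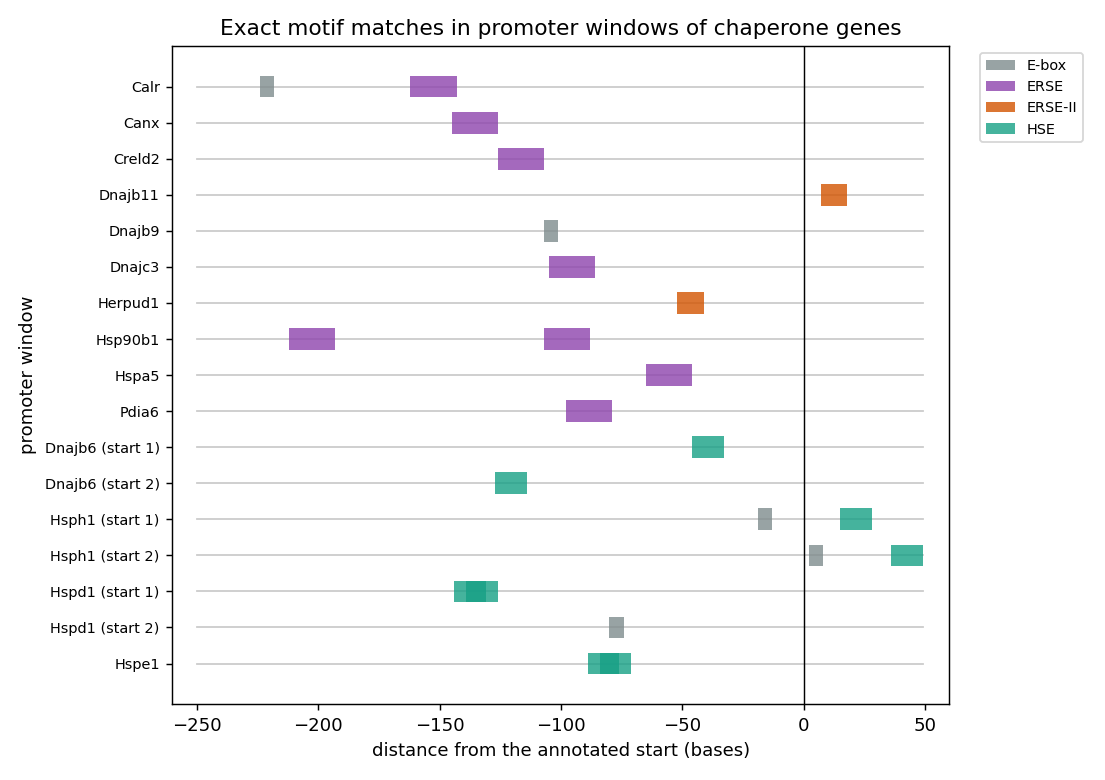
Positions of the ERSE, ERSE-II, heat shock element (HSE) and E-box letters in the 300-base promoter windows of members with a match, in bases from the annotated transcript start (horizontal axis), with 1 row per transcript start and coloured blocks for the elements. The ERSE and ERSE-II blocks all lie in ER members, and the HSE blocks lie in Dnajb6, Hsph1, Hspd1 and Hspe1.

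The first question was what 4 h of imatinib did to these genes in cells driven by a PDGF receptor fusion. In limma's fit 11 of the 40 tested members fell (27.5%, against 12.4% of all 6808 genes tested) and 0 rose (against 13.5% of all genes). At an unadjusted p under 0.05, 16 of the 40 members were lower (against 19.1% of all genes) and 2 higher (Calr and Dnajb1, against 23.5% of all genes). The median limma log2 change was -0.20 over the 40 members and 0.04 over all genes. The genes that fell were 4 of 18 ER members (22.2%), 4 of 10 cytosolic members (40%), 2 of 4 mitochondrial members (50%) and 1 of 8 chaperonin members. The chaperonin share (12.5%) was near that of all genes (12.4%), its gene was Pfdn2, and 0 of the 7 CCT subunits fell. The group medians were -0.22 (ER), -0.30 (cytosolic), -0.23 (mitochondrial) and -0.13 (chaperonin). In the single arrays the log2 ratio of treated to untreated cells was negative in both fusion lines for 26 of 39 members with a ratio in each (66.7%, against 33.6% of all genes).

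**Figure D2:**
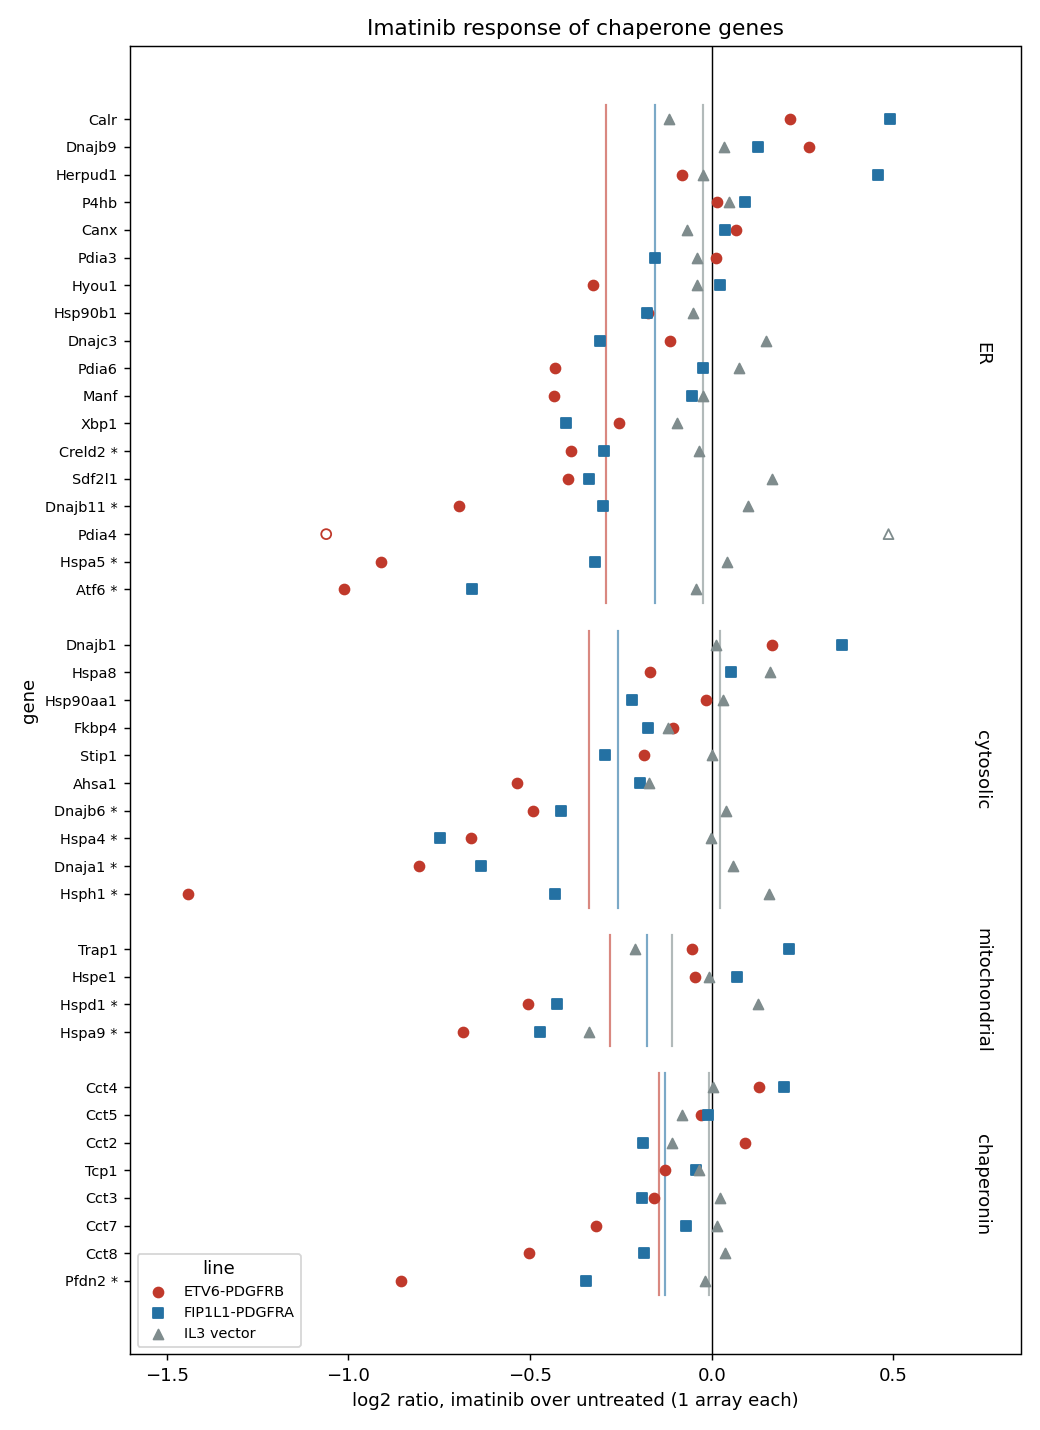
Log2 ratio of imatinib-treated to untreated signal for each member above the floor (1 array per point), in the ETV6-PDGFRB, FIP1L1-PDGFRA and IL3 vector lines, by group. Open points are bounds (1 of the 2 arrays lay at the floor), vertical lines are group medians and asterisks mark genes that fell in limma's fit. Hsph1 reaches -1.44 in the ETV6-PDGFRB line, and the vector points lie between -0.34 and 0.49.

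Among the ER genes the HSP70 Hspa5 and its partner Dnajb11 fell, as did Creld2 and Atf6, and the lectin chaperones did not pass the test. Hspa5 (BiP) is the HSP70 of the ER lumen and the usual marker of the unfolded protein response. Its signal was 1170 untreated and 1205 with imatinib in the vector line, 1833 and 976 in the ETV6-PDGFRB line, and 1271 and 1017 in the FIP1L1-PDGFRA line. Both treated fusion arrays were the lowest of the 6, and the untreated ETV6-PDGFRB array stood above all others. The log2 ratio was -0.91 in ETV6-PDGFRB cells, -0.32 in FIP1L1-PDGFRA cells and 0.04 in vector cells, and Hspa5 fell by 0.62 ± 0.16 in log2 units (SE, adjusted p = 0.0433, limma). A further probe set of Hspa5 gave -0.68 and -0.52 in the fusion lines.

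Dnajb11 is a J-domain partner of BiP. Its signals were 208 and 223 in the vector line, 260 and 161 in the ETV6-PDGFRB line and 188 and 153 in the FIP1L1-PDGFRA line, untreated and treated. The treated fusion arrays were again the lowest, but the untreated FIP1L1-PDGFRA array also lay below both vector arrays. Dnajb11 fell by 0.50 ± 0.13 (SE, adjusted p = 0.0432, limma). Creld2, a secreted and ER-resident protein induced by ER stress, had signals of 156 and 153, 177 and 136, and 163 and 133 in the same order. It fell by 0.34 ± 0.09 (SE, adjusted p = 0.0441, limma), with the treated fusion arrays below the other 4.

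Atf6 encodes the membrane-bound precursor of a transcription factor that is cut and released when the ER is under stress. Its signals were low on every array, 55.0 and 53.4 in the vector line, 61.5 and 30.5 in the ETV6-PDGFRB line, and 65.8 and 41.6 in the FIP1L1-PDGFRA line. Both treated fusion arrays were below the other 4, with log2 ratios of -1.01 and -0.66 against -0.04 in vector cells. Atf6 fell by 0.84 ± 0.12 (SE, adjusted p = 0.0107, limma), the largest change among the ER members that fell.

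Other ER members with the same direction did not pass the test. Sdf2l1, a BiP co-factor, had signals of 107 and 120, 132 and 101, and 102 and 80.8 (untreated and treated, vector, ETV6-PDGFRB and FIP1L1-PDGFRA line), with a log2 change of -0.37 ± 0.10 (SE, adjusted p = 0.0516, limma). Xbp1, the other main transcription factor of the response, changed by -0.33 ± 0.09 (SE, adjusted p = 0.0597, limma), from signals of 1263 and 1182, 1152 and 966, and 1285 and 973. Both had their lowest values on the treated fusion arrays and passed the test in 5 of 8 alternative fits that kept both fusion lines, as often as Creld2. The adjusted p over these fits ran from 0.0111 to 0.0955 for Sdf2l1 and from 0.00983 to 0.126 for Xbp1 (limma), and the array does not separate spliced from unspliced Xbp1. Further Xbp1 probe sets had log2 ratios of -0.34 and -0.80 in one and -0.33 and -0.79 in another (ETV6-PDGFRB and FIP1L1-PDGFRA line). A dim one had 0.09 and -0.05. Hsp90b1 (GRP94), the HSP90 of the ER, changed by -0.18 ± 0.09 (SE, adjusted p = 0.177, limma). Manf, which binds BiP, was at 925 in untreated ETV6-PDGFRB cells and 685 to 765 on the other 5 arrays, with a limma log2 change of -0.24 (adjusted p = 0.181).

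The calnexin and calreticulin pair, lectins that hold glycoproteins until they fold, had no change that passed the test. Calr signals were 1203 and 1108 in the vector line, 1209 and 1405 in the ETV6-PDGFRB line and 1073 and 1509 in the FIP1L1-PDGFRA line. The treated fusion arrays were the highest of the 6 and overlapped no other array, yet the log2 change of 0.35 ± 0.11 (SE, adjusted p = 0.0711, limma) did not pass the test. Canx changed by 0.05 ± 0.09 (SE, adjusted p = 0.686, limma), and its 6 signals ran from 695 to 795, while another probe set had log2 ratios of -0.12 and -0.28 in the fusion lines, so Canx has no settled direction. The promoter windows of Calr and Canx carry an ERSE, as do those of Hspa5 and Creld2.

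The protein disulfide isomerases, which form and rearrange disulfide bonds, had no member that passed the test. P4hb had the highest mean signal of the ER group and was low in 1 line at both treatments. Its signals were 1526 and 1578 in the vector line, 908 and 918 in the ETV6-PDGFRB line and 1387 and 1477 in the FIP1L1-PDGFRA line. The log2 change with imatinib was 0.05 ± 0.09 (SE, adjusted p = 0.672, limma). Pdia3 changed by -0.07 and Pdia6 by -0.23 in limma's fit. Pdia4 was above the floor on only 2 arrays, at 28.1 in treated vector cells and 41.9 in untreated ETV6-PDGFRB cells, so its log2 ratios are bounds.

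Herpud1, a membrane protein of ER-associated degradation whose promoter holds an ERSE-II, was higher in the fusion lines whether treated or not. Its signals were 165 and 163 in the vector line, 308 and 291 in the ETV6-PDGFRB line and 228 and 313 in the FIP1L1-PDGFRA line. All 4 fusion arrays lay above both vector arrays. The change with imatinib was 0.19 ± 0.15 (SE, adjusted p = 0.374, limma), and a further probe set gave log2 ratios of 0.53, 0.60 and -0.25 in the ETV6-PDGFRB, FIP1L1-PDGFRA and vector lines. The remaining ER members, Dnajb9, Dnajc3 and Hyou1, had limma log2 changes of 0.20, -0.21 and -0.15. A dimmer Hyou1 probe set had log2 ratios of -0.91 and -0.74 in the fusion lines and 0.08 in vector cells. Hyou1 passed the test in 2 of 8 alternative fits that kept both fusion lines. Further Dnajc3 probe sets differed in direction, with 0.48 and 0.25 in the fusion lines in one and -0.12 and -0.38 in another.

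**Figure D3:**
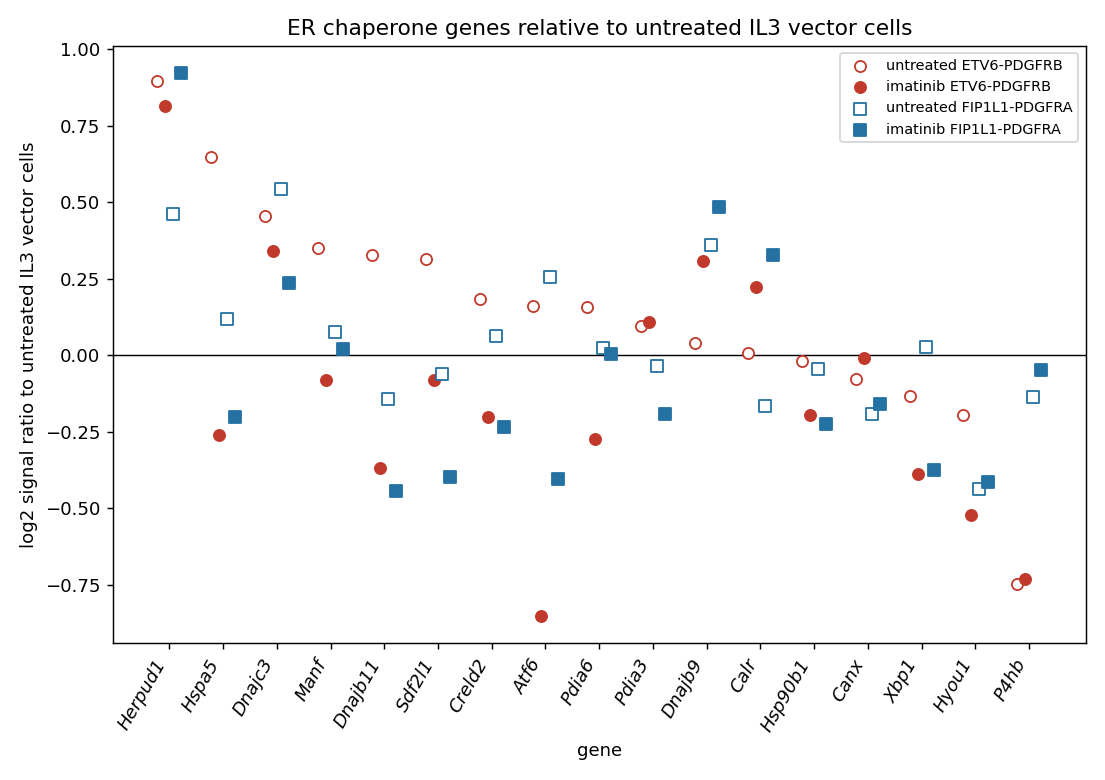
Log2 ratio of the signal in each fusion line array to untreated vector cells for the 17 ER members above the floor on every array, with open points for untreated and filled points for treated cells, 1 array per point. Herpud1 is above 0 on all 4 fusion arrays, Calr is highest when treated, and P4hb is lowest in ETV6-PDGFRB cells at both treatments.

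The ERSE and ERSE-II were set beside these changes. Of the 9 ER members with an ERSE or ERSE-II, 3 fell (Hspa5, Dnajb11 and Creld2), where 12.4% of all genes did, with a median limma log2 change of -0.21. Of the 6 ER members with a window and neither element, 0 fell in limma's test, 2 had an unadjusted p under 0.05 and a negative change, and the median was -0.20. Atf6, the other ER member that fell, had no promoter window and was in neither set, as were Manf and Hyou1.

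Among cytosolic genes the HSP110 genes Hspa4 and Hsph1 and the J-domain genes Dnaja1 and Dnajb6 fell, and the HSP70 gene Hspa8 and the HSP90 gene Hsp90aa1 did not pass the test. Hspa4 is an HSP110 protein and a nucleotide exchange factor for HSP70. Its signals were 759 and 757 in the vector line, 632 and 399 in the ETV6-PDGFRB line and 817 and 487 in the FIP1L1-PDGFRA line. Both treated fusion arrays lay below the other 4, with log2 ratios of -0.66 and -0.75 against 0.00 in vector cells. Hspa4 fell by 0.70 ± 0.09 (SE, adjusted p = 0.00854, limma). Its dimmer probe sets moved less, by -0.35 and -0.41 in one (0.06 in vector cells) and by -0.11 and -0.16 in the other (-0.17 in vector cells).

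Hsph1, the inducible HSP110, had the lowest log2 ratio in ETV6-PDGFRB cells among the members above the floor on every array. Signals were 178 and 198 in the vector line, 283 and 104 in the ETV6-PDGFRB line and 183 and 136 in the FIP1L1-PDGFRA line. Untreated ETV6-PDGFRB cells were the highest array and treated ones the lowest. The log2 ratios were -1.44 and -0.43 in the fusion lines and 0.16 in vector cells, and Hsph1 fell by 0.94 ± 0.24 (SE, adjusted p = 0.0468, limma).

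Dnaja1, a farnesylated J-domain partner of HSP70, had signals of 837 and 872, 815 and 466, and 883 and 569 in the vector, ETV6-PDGFRB and FIP1L1-PDGFRA lines. The 4 arrays other than the treated fusion pair lay within 815 to 883. Dnaja1 fell by 0.72 ± 0.09 (SE, adjusted p = 0.00963, limma). Dnajb6, a J-domain protein that keeps aggregation-prone proteins in solution, had signals of 464 and 477, 570 and 405, and 576 and 432. It was higher in the untreated fusion lines than in vector cells and lower than in vector cells after treatment. Dnajb6 fell by 0.45 ± 0.09 (SE, adjusted p = 0.0222, limma). Its further probe sets gave -0.66, -0.47 and -0.15 in the ETV6-PDGFRB, FIP1L1-PDGFRA and vector lines in one, and -0.41, -0.59 and -0.59 in the other, which was as low in the vector line as in the fusion lines.

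Hspa8 (HSC70), the constitutive HSP70 and the brightest cytosolic member, had signals of 3312 and 3703 in the vector line, 3959 and 3519 in the ETV6-PDGFRB line and 3364 and 3489 in the FIP1L1-PDGFRA line. Treated and untreated arrays overlapped, and the log2 change was -0.06 ± 0.11 (SE, adjusted p = 0.712, limma). Hsp90aa1, the stress-inducible HSP90, had 6 signals from 2267 to 2677 and a change of -0.12 (adjusted p = 0.391, limma). The HSP90 co-chaperones Stip1, Ahsa1 and Fkbp4 had limma log2 changes of -0.24, -0.37 and -0.14 with adjusted p-values of 0.101, 0.0873 and 0.303. Dnajb1, the main inducible HSP40, had the opposite direction: its signals were 270 and 272, 312 and 350, and 270 and 346, with the treated fusion arrays highest. Its log2 change of 0.26 ± 0.09 (SE, adjusted p = 0.0978, limma) did not pass the test.

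Of the mitochondrial genes, the matrix HSP70 and the HSP60 chaperonin fell, and the small partner of HSP60 did not pass the test. Hspa9 (mortalin) draws proteins into the matrix, and its signals were 528 and 417 in the vector line, 478 and 298 in the ETV6-PDGFRB line and 523 and 377 in the FIP1L1-PDGFRA line. It was lower after imatinib in all 3 lines, by -0.68 and -0.47 in the fusion lines and -0.34 in vector cells, the lowest vector ratio of any member. Hspa9 fell by 0.58 ± 0.14 (SE, adjusted p = 0.0415, limma), and 2 further probe sets differed from it. In the ETV6-PDGFRB, FIP1L1-PDGFRA and vector lines the dimmer of these had log2 ratios of -1.09, -1.21 and -0.35 and the other -0.43, -0.08 and -0.68, so the latter was lower with imatinib most in the vector line.

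Hspd1 (HSP60) had the highest mean signal of the mitochondrial group, with 1850 and 2022 in the vector line, 1658 and 1168 in the ETV6-PDGFRB line and 1761 and 1312 in the FIP1L1-PDGFRA line. The treated fusion arrays lay below the other 4, and Hspd1 fell by 0.46 ± 0.09 (SE, adjusted p = 0.0257, limma). Hspe1 (HSP10) forms the lid of the HSP60 ring and shares the promoter stretch shown above. Its signals were 1668 and 1660, 1534 and 1485, and 1464 and 1537, with a log2 change of 0.01 ± 0.09 (SE, adjusted p = 0.932, limma). Of the 4 members with a heat shock element match, Dnajb6, Hsph1 and Hspd1 fell, where 12.4% of all genes did, and Hspe1 did not pass the test. Dnaja1, whose promoter windows held no match, fell too. A link between the element and these changes was not tested. Trap1, the mitochondrial HSP90, changed by 0.08 ± 0.12 (SE, adjusted p = 0.651, limma).

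Pfdn2, a subunit of the prefoldin complex that hands unfolded actin and tubulin to CCT, was the chaperonin member that fell. Its signals were 225 and 222 in the vector line, 245 and 136 in the ETV6-PDGFRB line and 219 and 172 in the FIP1L1-PDGFRA line. The treated fusion arrays were below the other 4, with log2 ratios of -0.85 and -0.35 against -0.02. Pfdn2 fell by 0.60 ± 0.14 (SE, adjusted p = 0.0357, limma). Tcp1, the first CCT subunit and the brightest gene of the group, had signals of 1973 and 1925, 1717 and 1572, and 1752 and 1701, and a change of -0.09 ± 0.09 (SE, adjusted p = 0.494, limma). On the chosen probe sets the 7 CCT subunits, parts of the same ring, had limma log2 changes from -0.34 (Cct8, adjusted p = 0.0753) to 0.16 (Cct4). The median was -0.09. Cct3 was at -0.18 on its chosen probe set, but its other detected probe sets lay below that range. Those about as bright had mean log2 ratios of -0.38 and -0.40 in the fusion lines, and dimmer ones -0.56 and -0.60. In the main fit 0 of the 7 passed limma's test and 1 (Cct8) had an unadjusted p under 0.05. Cct3 passed in 3 of 8 alternative fits that kept both fusion lines.

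**Figure D4:**
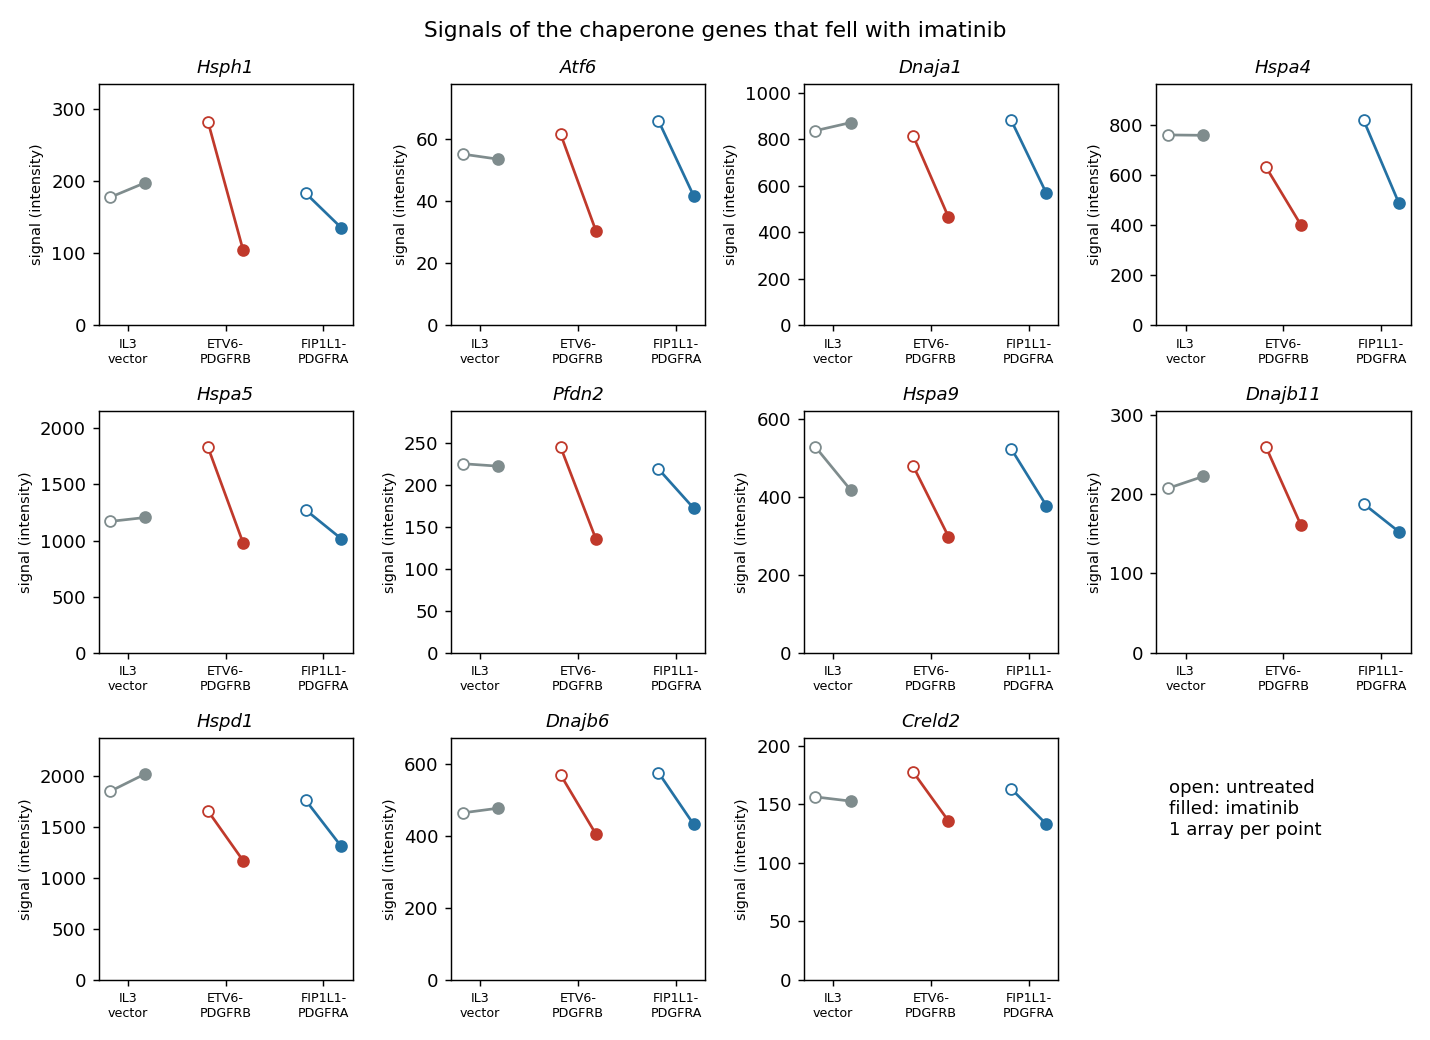
Signal (linear axis from 0) of the 11 members that fell, 1 array per point, with open points for untreated and filled points for imatinib-treated cells, joined within the vector, ETV6-PDGFRB and FIP1L1-PDGFRA lines. For all 11 genes the treated fusion arrays are the lowest of the 6.

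Both treated fusion arrays were the lowest of the 6 for 21 of the 39 members above the floor on every array (53.8%, against 20.2% of all genes). Of these, 7 were ER, 7 cytosolic, 2 mitochondrial and 5 chaperonin members. They were the highest of the 6 for 2 members, Calr and Dnajb1 (against 25.1% of all genes).

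The fusion lines were then set side by side, each ratio resting on 1 pair of arrays with no replicate. In ETV6-PDGFRB cells 9 of 40 members were more than 1.5-fold lower with imatinib (22.5%, against 9.24% of all genes): Hspa5, Pdia4, Dnajb11, Atf6, Hspa4, Hsph1, Dnaja1, Hspa9 and Pfdn2. In FIP1L1-PDGFRA cells 3 of 39 were (7.69%, against 8.99% of all genes): Atf6, Hspa4 and Dnaja1, which are also the 3 that passed that limit in both lines (5.56% of all genes did). A 2-fold limit left Pdia4, Atf6 and Hsph1 in ETV6-PDGFRB cells (3 members, with 2.86% of all genes past it) and 0 members in FIP1L1-PDGFRA cells (2.97%). In each line 0 members were 1.5-fold higher, against 8.63% and 9.03% of all genes. The log2 ratio was lower in ETV6-PDGFRB than in FIP1L1-PDGFRA cells for 27 of 39 members (69.2%, against 53.6% of all genes), with a median difference of -0.09 against -0.03. By group, the median log2 ratios in ETV6-PDGFRB, FIP1L1-PDGFRA and vector cells were -0.29, -0.16 and -0.02 for ER members, -0.34, -0.26 and 0.02 for cytosolic, -0.28, -0.18 and -0.11 for mitochondrial and -0.14, -0.13 and -0.01 for chaperonin members. Over all genes they were 0.03, 0.05 and 0.01. A further limma fit, added after these values were seen, tested the difference between the fusion lines with the spread taken from the vector pair (1 residual degree of freedom). It called 0 of 6808 genes (lowest adjusted p = 0.429, limma). At an unadjusted p under 0.05 were 11.5% of all genes in either direction, 5.86% with the lower ratio in ETV6-PDGFRB cells. Of the 40 members 5 were (12.5%), all with the lower ratio in ETV6-PDGFRB cells: Hspa5, Manf, Herpud1, Hsph1 and Pfdn2.

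In the vector line, which carries no fusion kinase, 0 members were 1.5-fold higher or lower with imatinib, against 0.914% and 0.539% of all genes. The median log2 ratio was 0.00 over the members and 0.01 over all genes. The SD of the log2 ratios over all genes was 0.195 in the vector pair, 0.503 in ETV6-PDGFRB cells and 0.506 in FIP1L1-PDGFRA cells. Whether the response in the fusion lines differed from that in the vector line was tested with limma in 1 further fit. It called 0 genes (lowest adjusted p = 0.114, limma). At an unadjusted p under 0.05 were 17.3% of all genes in either direction, 9.03% with a lower response in the fusion lines. Of the 40 members 5 were (12.5%), all with a lower response there: Dnaja1, Hspa4, Atf6, Hspd1 and Sdf2l1. The lowest adjusted p of a member was 0.212, for Dnaja1, with a difference of -0.78.

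The untreated lines were compared next, 1 array each, and these arrays also enter the imatinib ratios above, so a high untreated value lowers the ratio of the same gene. In ETV6-PDGFRB cells the ER members had a median log2 ratio to the vector line of 0.16, against 0.02 over all genes. Of the ER members 13 of 18 were above 0, and of all genes 3596 of 6790. In FIP1L1-PDGFRA cells the ER median was 0.03. The cytosolic medians were -0.01 and 0.02, the mitochondrial ones -0.13 and -0.13, and the chaperonin ones -0.13 and -0.09. Scaling to the hybridization controls, a single factor per array, lowered all ETV6-PDGFRB medians, to -0.02 (ER), -0.19 (cytosolic), -0.31 (mitochondrial) and -0.31 (chaperonin). It raised the FIP1L1-PDGFRA ones to 0.10, 0.10, -0.05 and -0.01. The median of all genes under that scaling is not given here for the untreated lines. Of the members, 4 were more than 1.5-fold higher in untreated ETV6-PDGFRB than in vector cells (6.41% of all genes were): Herpud1 by 0.90, Hsph1 by 0.67, Hspa5 by 0.65 and Pdia4 by at least 1.06 on the log2 scale. P4hb was the 1 member more than 1.5-fold lower, at -0.75 (3.42% of all genes). In FIP1L1-PDGFRA cells 0 members passed 1.5-fold either way (4.12% and 2.35% of all genes).

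After treatment the medians against treated vector cells were -0.21 and -0.16 for ER members, -0.32 and -0.26 for cytosolic, -0.32 and -0.13 for mitochondrial and -0.28 and -0.17 for chaperonin members, in ETV6-PDGFRB and FIP1L1-PDGFRA cells. All 8 chaperonin members were below the treated vector line in each treated fusion line. Over all genes 3164 of 6846 were in ETV6-PDGFRB cells and 3225 of 6758 in FIP1L1-PDGFRA cells. In untreated cells 7 and 6 of the 8 chaperonin members were already below the vector line, in the same order. The number more than 1.5-fold lower was 8 of 40 in ETV6-PDGFRB cells (10.9% of all genes) and 3 of 40 in FIP1L1-PDGFRA cells (8.52% of all genes). Herpud1 was the 1 member more than 1.5-fold higher, by 0.84 and 0.94 (14.5% and 8.49% of all genes).

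The other genes of these pathways moved in both directions, as did all genes tested, of which 13.5% rose and 12.4% fell in limma's fit. Among 34 tested genes of ER-associated degradation and unfolded protein response signalling, 4 rose and 7 fell (20.6% fell). Atf4, the transcription factor of the stress branch that senses amino acid shortage as well as ER stress, had signals of 446 and 443 in the vector line, 871 and 311 in the ETV6-PDGFRB line and 744 and 453 in the FIP1L1-PDGFRA line. It fell by 1.10 ± 0.19 (SE, adjusted p = 0.0177, limma), from untreated fusion values above every other array. Its target Trib3, a pseudokinase, fell by 0.97 (adjusted p = 0.0294, limma), with a log2 ratio of -0.57 in vector cells too, and Derl1, a channel protein of ER-associated degradation, rose by 0.76 ± 0.12 (SE, adjusted p = 0.0145, limma).

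Of 22 other ER folding genes 2 rose and 3 fell (13.6% fell, against 12.4% of all genes). Selenom, an ER selenoprotein, rose by 0.72 ± 0.08 (SE, adjusted p = 0.00805, limma), and the calcium-binding protein Rcn1 fell by 0.65 (adjusted p = 0.0362, limma). Bag2, which was placed in this list although it is a cytosolic HSP70 co-chaperone, fell by 0.69 (adjusted p = 0.0249, limma).

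Of 35 other genes of the cytosolic HSP70 and HSP90 systems 4 rose and 7 fell (20.0% fell, against 12.4% of all genes). Bag5, a nucleotide exchange factor of HSP70, fell by 0.80 ± 0.13 (SE, adjusted p = 0.0143, limma) and the J-domain gene Dnajc21 by 0.70 (adjusted p = 0.0253, limma), while the J-domain gene Dnajb4 rose by 0.71 (adjusted p = 0.0207, limma). Hspa4l, the HSP110 relative of Hspa4 and Hsph1, was singled out after its values were seen: its signals were 164 and 165, 166 and 281, and 188 and 285, and it rose by 0.68 ± 0.09 (SE, adjusted p = 0.0101, limma), opposite to both. The inducible HSP70 genes Hspa1a and Hspa1b stayed under the floor on every array.

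Of 22 other mitochondrial chaperones, import factors and proteases 2 rose and 4 fell (18.2% fell, against 12.4% of all genes). Hscb, a J-domain protein of iron-sulfur cluster assembly, had signals of 95.9 and 93.6, 129 and 280, and 97.0 and 204, and rose by 1.09 ± 0.08 (SE, adjusted p = 0.00383, limma). The treated fusion arrays were the highest of the 6. Timm8a1 and Timm10, small chaperones of the space between the mitochondrial membranes, fell by 1.01 and 0.96 (adjusted p = 0.00608 and 0.00749, limma). Of 16 other chaperonin and prefoldin genes 2 rose and 0 fell (limma, against 13.5% and 12.4% of all genes). Pfdn5 rose by 0.57 and Tbce, a tubulin-folding cofactor, by 0.42 (adjusted p = 0.0278 and 0.0321, limma). At an unadjusted p under 0.05, 1 of the 16 was lower, against 19.1% of all genes. Pfdn5 and Pfdn2, subunits of the same complex, thus moved in opposite directions.

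These counts rest on few arrays. The 11 members that fell kept a negative change in all 10 alternative fits, but their number ranged with the settings: 5 with a lower floor (Atf6, Hspa4, Dnaja1, Dnajb6 and Hspd1), 3 from the 4 fusion arrays alone (Atf6, Hspa4 and Dnaja1), 25 with scaling to the hybridization controls, and 0 when either fusion line was left out, where 0 of all 6808 genes were called. Creld2 also lost its call with quantile normalization and Hspa9 with the mean of all its probe sets. That scaling shifted the median of all genes to -0.15 for ETV6-PDGFRB cells and -0.20 for FIP1L1-PDGFRA cells, and under it 27.6% of all genes fell.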

How the data were processed

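Intensity values were deposited by the authors as linear array signals computed with MAS5 in GCOS 1.4.0, per the submitters' processing notes, and each array was found to have a trimmed mean of 100 (2% left out at each end). A genome build was not given in the sources used here. Probe sets with 1 gene symbol (20393 of 22690, without 691 that have several symbols and 1606 that have none) were used, with the brightest kept for each gene. Signals under the floor of 20.1, the median of the arrays' 50th percentiles, were set to it before taking log2. A gene was tested when at least 2 arrays were above the floor, with limma 3.58.1 in R 4.3.3, with line as a block, 1 coefficient for imatinib in fusion cells and Benjamini-Hochberg adjustment over 6808 genes. The fit had 2 residual degrees of freedom, to which the prior added 3.10. Ratios within a line rest on 1 array each and have no test. A ratio with 1 array at the floor is a bound. The number of arrays limits the precision.

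The rule for genes with all values took members that fell, members past 1.5-fold in both fusion lines and the brightest member of each group; Sdf2l1, Xbp1, Calr, Herpud1, Dnajb1 and Hspe1 were added after their values were seen. Of other pathway lists, the 3 largest changes among those that passed were named. Members and lists were chosen with earlier results of these data known. Alternatives were other floors, a pseudocount of 16, quantile normalization, scaling to 9 hybridization control probe sets, the mean of all probe sets, the fusion arrays alone, a limma trend and leaving out each fusion line. Scripts used Python 3.11.15, numpy 2.4.6, pandas 2.3.3 and matplotlib 3.10.9, and the fit was tested on simulated data.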

Additional observations from a re-analysis of the deposited data

Results flagged for a closer look

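A screen for changes that went one way in the vector line and the other way in a fusion line flagged 2 members. Opposite signs were not limited to them: Hspa5, for example, had 0.04 in vector cells and -0.91 in ETV6-PDGFRB cells. In limma's fit of the fusion response against the vector line neither flagged member passed (adjusted p = 0.366 for Pdia4 and 0.544 for Trap1). The difference of a single fusion line from the vector line was not tested. Pdia4, a disulfide isomerase of the ER, had a log2 ratio of at most -1.06 in ETV6-PDGFRB cells and of at least 0.49 in vector cells, both bounds from signals near the floor. Trap1, the mitochondrial HSP90, had a log2 ratio of 0.21 in FIP1L1-PDGFRA cells and -0.21 in vector cells, from signals of 230 and 266 against 297 and 257. No group held 4 or more samples, so single arrays were not screened for outlying values.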

How the results depend on the processing

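With 1 array per group, no value has a replicate of its own. The count of members that fell (11) was 5 with the floor at the 40th percentile (7.63% of all genes fell), 25 with hybridization control scaling, 3 with only the 4 fusion arrays (6.92% of all genes) and 0 to 0 without each fusion line, where 1 residual degree of freedom remained, 0 of all 6808 genes were called, and 10 and 16 of 40 members were lower at an unadjusted p under 0.05 (limma; 14.8% and 16.3% of all genes without ETV6-PDGFRB and without FIP1L1-PDGFRA). The count that rose (0) became 1 with the floor at the 60th percentile and 1 with the pseudocount (Calr in each), and 3 with the limma trend (Calr, Cct4 and Dnajb1), while 17.4%, 16.1% and 18.5% of all genes rose. Hybridization control scaling moved the FIP1L1-PDGFRA medians to -0.37 (ER), -0.52 (cytosolic), -0.44 (mitochondrial) and -0.39 (chaperonin). It moved the members 1.5-fold lower to 16 in the ETV6-PDGFRB line (16.2% of all genes) and 10 in the FIP1L1-PDGFRA line (18.2% of all genes). The mean of all probe sets left 1 in the FIP1L1-PDGFRA line (7.6% of all genes). Of 120 alternative values of the group medians, 116 moved by less than 0.195 on the log2 scale. Atf6, Hspa4 and Dnaja1 fell in all 8 alternatives that kept both fusion lines, and Sdf2l1 and Xbp1, not called as reported, fell in 5 of them each. The cause of these moves was not tested. Treated and untreated arrays were compared within lines throughout. Beyond that, no paired analysis was possible because each group holds 1 array.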
